A study of Mus musculus with 15 samples.

Results

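The cytosolic ribosomal protein genes code for the protein part of the ribosomes that translate nuclear messages, and they were followed here in mouse trigeminal ganglia (TG), the ganglia that hold the sensory neurons of the cornea. A gene was a member when it was protein-coding in the GENCODE annotation and its symbol began with Rpl or Rps and a digit, or was Rplp0, Rplp1, Rplp2 or Rpsa. The Rps6k kinases and the pseudogenes were left out. The rule took 86 of the 55573 genes in the counts table. All TG came from male CD1 mice aged 10 weeks whose right cornea had been injured by removal of the central epithelium and the anterior stroma, so that no uninjured group was compared. The eye then received vehicle, resolvin D6 (RvD6, a lipid mediator derived from docosahexaenoic acid) or its stereoisomer RvD6si 3 times a day, and on day 12 the TG of the injured side was collected. RNA was sequenced from 5 TG per group, which are named here by their replicate numbers: 1 to 5 for vehicle, 6 to 10 for RvD6 and 11 to 15 for RvD6si. RvD6si had been isolated by the study from tears and corneal media of other mice. The amounts of the lipids applied are not given in the sources used here.

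A ribosome has a large and a small subunit, each built of ribosomal RNA and of many small, mostly basic proteins, most of which are needed in equal numbers. Their messages are among the most abundant of a cell and usually start with a run of pyrimidines, the 5′ terminal oligopyrimidine (TOP) tract, through which growth signalling by mTORC1 and the RNA-binding protein LARP1 sets how much of each message is translated. In sensory neurons the same messages are also carried into axons. The 86 genes held 43 proteins of the large subunit, the 3 proteins of its P stalk, and 31 proteins of the small subunit, together 77 of the 79 ribosomal proteins. The other two have symbols that the rule did not take, Fau among them. The remaining members were 8 paralogs or copies (Rpl3l, Rpl7l1, Rpl10l, Rpl22l1, Rpl36al, Rpl39l, Rps27l and Rps27rt) and Rps19bp1, which takes its name from binding Rps19 and is not a ribosomal protein. The label therefore held for the set except for Rps19bp1 and for Rpl7l1, which acts in the making of the large subunit.

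Pyrimidine runs near the annotated start are a sequence feature of most of these genes, and a few are shown because they belong to the members described below. RefSeq promoter windows of 300 bases (250 before the annotated start and 50 from it, GRCm38.p6) matched 66 of the 86 members. Within 50 bases on either side of the start, 53 of these 66 (80.3%) held an unbroken run of at least 8 C or T on the gene's strand, against 39.3% of all 27025 genes with a window. The median longest run was 10 bases among members and 7 among all genes. The windows below are 30 bases long and written 5′ to 3′, with the longest run inside these limits in capitals. The run of Rpl26 reaches the limit and goes on into the lower-case bases before it.
Rpl12: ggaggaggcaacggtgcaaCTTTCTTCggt
Rpl28: cctctcgtgTCTCTCTTTCCgtctccggcc
Rpl31: tcgccacaCCTCTTCCTCCTCgcctccccg
Rpl6: cgctgccttagTTCTCTTTCCCgtcttgca
Rpl19: gcggcccacaagCTCTTTCCTTTCgctgct
Rpl26: tcccaaccTCCTCTCCCCTTTCgctccgag
Rplp0: ggaccgcctggTTCTCCTataaaaggcaca
Rplp2: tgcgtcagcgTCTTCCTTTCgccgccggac
Rps6: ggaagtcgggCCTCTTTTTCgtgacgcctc
Rps27: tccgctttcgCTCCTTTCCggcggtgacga
Rpl3l: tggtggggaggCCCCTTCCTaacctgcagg
Rps19bp1: ctcctgctccagTTTCTgccgaggagcgaa
They lie, in the same order, at chr2:32961732-32961761 (+), chr7:4792953-4792982 (+), chr1:39367825-39367854 (+), chr5:121204521-121204550 (+), chr11:98026944-98026973 (+), chr11:68901508-68901537 (+), chr5:115559467-115559496 (+), chr7:141447636-141447665 (+), chr4:86857349-86857378 (-), chr3:90213631-90213660 (-), chr17:24727846-24727875 (+) and chr15:80264328-80264357 (-). The run of Rps6 began 1 base before the annotated start, and that of Rpl19 began 32 bases after it, so the annotated start and the run did not always coincide. The letters CCGGAAG, on either strand and anywhere in the 300 bases, were found in 26 of the 66 members (39.4%) and in 9.93% of all genes. TATAAA was found in 7 members (10.6%) and in 15.7% of all genes. Such matches describe the windows only, and they were not compared with the changes reported below.

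Between 4125962 and 9903396 reads were counted per sample, lowest in RvD6si replicate 15, and 16567 genes had enough counts to be tested, 84 of the members among them. Rpl10l, a copy used in the testis, had 0 counts in all 15 samples, where a count of 0 allows up to 3 counts a sample, and Rpl39l, the testis copy of Rpl39, had 2 counts in a single vehicle sample. Both were left out of the tests. Of the other members, 80 had at least 10 counts in every sample. Several libraries stood apart from their groups. RvD6 replicates 8 and 9 held skeletal muscle messages, with 12 markers summing to 2216 and 3448 counts per 1000000 (CPM) against 38.6 to 436 CPM in all other samples, and RvD6si replicate 15 held erythroid and marrow messages that are given below. Sensory neuron markers were found in all samples, at 8358 to 17788 CPM for 14 genes. The 8 pituitary markers, of which Lhb was at 0 in all samples, summed to 3744 CPM in vehicle replicate 3 and to 2313 CPM in RvD6 replicate 10, against 9.93 to 819 CPM in the other samples. Vehicle replicate 3 also had the largest share of counts on the members, and the part of pituitary RNA in it was not tested.

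Counts on the members made up a small part of each library. In vehicle they took 0.552, 0.476, 0.603, 0.546 and 0.558% of all counts in replicates 1 to 5 (mean 0.547%, SD 0.0457, n = 5). Per kilobase of annotated exon, the highest mean levels in vehicle were those of Rpl4, a large subunit protein, at 334 CPM per kb, of Rplp0, the base of the P stalk that recruits translation factors, at 311, of Rpl8 at 242 and of Rplp1, a second stalk protein, at 175. The lowest among the tested members were those of Rpl3l at 0.503, Rps10 at 0.565, Rps28 at 0.577 and Rps18 at 1.30 CPM per kb. Proteins that are mostly used in equal numbers were thus counted at very unequal levels, and 5 members held 36.3% of all counts on the set.

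The members differ in how much of their message is their own, which bears on these levels. Most have processed pseudogenes, copies of the message pasted back into the genome, and a read that aligns equally well to several places cannot be assigned to one of them with certainty. When the main coding transcript of each member was cut into windows of 75 bases, the length of a read, a median of 61.8% of the windows occurred in no other annotated gene. The share was 1.48% for Rps27, a small subunit zinc-finger protein, and 100% for Rps3, also of the small subunit. It was 100% for 5 members and under 25% for 18. Rps18 had 22.2%, while Rps28, at 73.9%, was also counted rarely. Rows annotated as ribosomal protein pseudogenes took 381830 counts in all against 589180 on the members, and 235 of these rows had a count. Levels are therefore compared below within a gene and not between genes. In addition, 39 members overlapped an exon of another gene, 19 of them on the opposite strand, which counting without strand cannot separate.

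**Figure D1:**
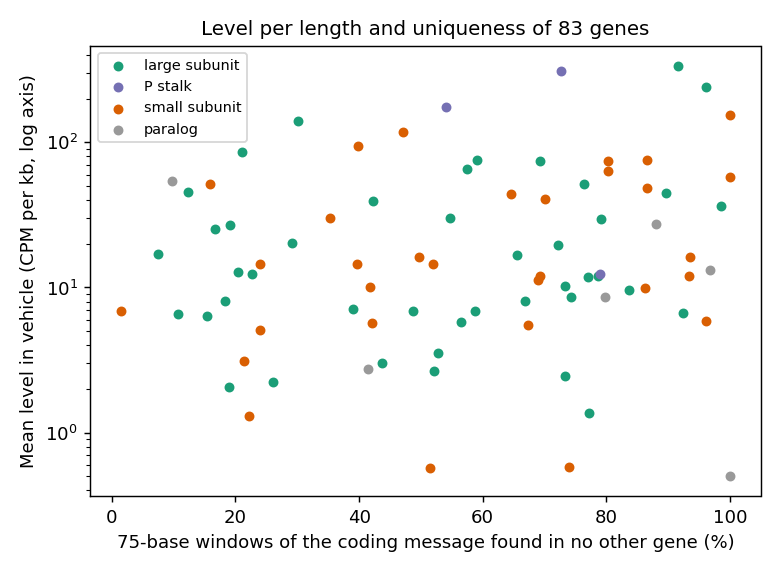
Mean level in vehicle (CPM per kb of exon, log axis) against the percent of 75-base windows of the coding message found in no other gene, for 83 tested members coloured by class. The 27 tested members of at least 75% had a median level of 19.03 CPM per kb and the 18 under 25% one of 12.6, with wide overlap. The 27 include Rps19bp1, which is not plotted and whose own level is that median.

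RvD6si was compared with vehicle to ask what the stereoisomer did to the ganglion's supply of ribosomal protein messages. After RvD6si most members were at lower levels than after vehicle, with a median log2 fold change of -0.35, but no single member passed the test. In RvD6si the members took 0.344, 0.540, 0.425, 0.417 and 0.570% of counts in replicates 11 to 15 (mean 0.459%, SD 0.0936, n = 5). Replicates 11, 13 and 14 lay below every vehicle sample, while replicates 12 and 15 lay within the vehicle range, so the groups overlapped. In a bulk ganglion, fewer cells of a type that makes much of a message and less message per cell cannot be told apart.

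**Figure D2:**
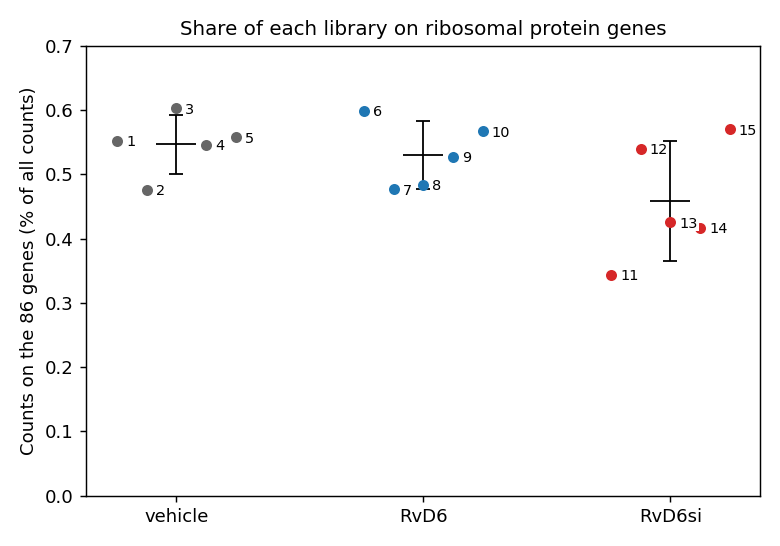
Counts on the 86 genes as a percent of all counts in each sample, by group, with replicate numbers beside the points and bars for the mean and the SD (n = 5). Of the RvD6si samples, replicates 11, 13 and 14 lie between 0.344% and 0.425%, and replicates 12 and 15 lie among the vehicle and RvD6 samples.

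With the quasi-likelihood test of edgeR, 0 of the 84 tested members had an adjusted p below 0.05 (background 0.67% of all genes tested), the lowest being adjusted p = 0.0814 for Rpl21. The log2 fold change was below 0 in 75 members (background 48.8%), against a median of 0.02 over all genes tested, and the middle 50% of members lay between -0.46 and -0.17. At an unadjusted p below 0.05, 23 members were lower (background 7.3%) and 0 were higher (background 8.68%). DESeq2 with all samples called 7 members, all lower (background 7.72% of the genes given an adjusted p), among them Rpl21, Rpl6, Rpl26, Rpl12, Rpl19 and Rpl4. Rpl6, Rpl26 and Rpl19 were named after their values were seen. DESeq2 gave 11 members no adjusted p.

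The deviation was carried by 3 of the 5 samples. In RvD6si replicates 11, 13 and 14, 68, 61 and 61 of the 84 members lay below every vehicle sample. In replicates 12 and 15 it was 16 and 11, and there 13 and 17 members lay above every vehicle sample. The median member was at -0.80, -0.53 and -0.54 on the log2 scale relative to the vehicle mean in replicates 11, 13 and 14, and at 0.03 and 0.05 in replicates 12 and 15. Vehicle samples themselves ranged from -0.21 in replicate 2 to 0.18 in replicate 3. The direction was shared by both subunits: 39 of 43 large subunit members (median log2 fold change -0.37) and 28 of 31 small subunit members (median -0.31) were below 0. Counts on the large subunit, stalk included, were 1.65 to 2.06 times those on the small subunit in RvD6si and 1.67 to 1.99 times in vehicle, so the ranges overlapped.

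**Figure D3:**
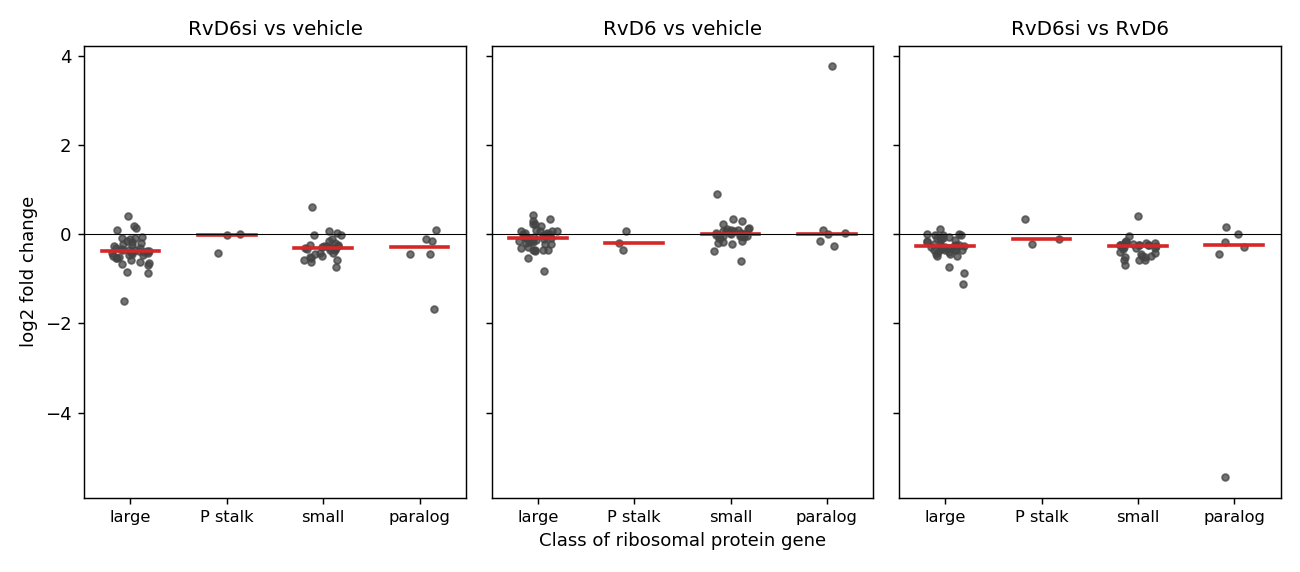
log2 fold change of 83 tested members by class for the 3 comparisons, with a red line at each class median and Rps19bp1 left out. Large and small subunit genes lie mostly below 0 in RvD6si against vehicle and against RvD6, around 0 in RvD6 against vehicle, and Rpl3l is the paralog far from the rest.

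Of the members 5, all of the large subunit, were lower in every RvD6si sample than in every vehicle sample (background 2.46%), and 0 were higher (background 2.45%). The count was 2 once gene length was accounted for, and 13 without RvD6si replicate 15. Rpl21 was at 39.2, 18.4, 27.8, 22.5 and 56.2 CPM in vehicle replicates 1 to 5 and at 7.61, 6.14, 15.4, 14.8 and 14.7 CPM in RvD6si replicates 11 to 15. Its log2 fold change was -1.49 (SE 0.40, adjusted p = 0.0814), and its vehicle samples were far apart among themselves. Rpl21 lies at chr5:146832890-146837032 (+), 83.6% of its windows were its own, and 15 pseudogenes carry its name.

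Rpl12, part of the base of the P stalk, was at 9.83, 7.92, 10.9, 7.95 and 11.5 CPM in vehicle and at 6.06, 7.45, 4.72, 4.46 and 3.61 CPM in RvD6si. The log2 fold change was -0.86 (SE 0.27, adjusted p = 0.119). Rpl12 was lowest in replicate 15, where the summed share was highest among the RvD6si samples. The gene lies at chr2:32961559-32965345 (+) and overlaps Lrsam1 on the opposite strand. Rpl31, near the exit of the peptide tunnel, was at 9.78 to 12.3 CPM in vehicle and at 4.66, 9.09, 4.60, 7.63 and 9.48 CPM in RvD6si, a log2 fold change of -0.68 (SE 0.27, adjusted p = 0.211). Rpl28 was at 13.6 CPM or more in all vehicle samples and at 7.45, 11.9, 7.40, 8.50 and 13.1 CPM in RvD6si, a log2 fold change of -0.61 (SE 0.23, adjusted p = 0.1995). Rpl18, the remaining such member, named after its values were seen, was at 45.9 to 54.1 CPM in vehicle and at 21.7 to 42.1 CPM in RvD6si.

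**Figure D4:**
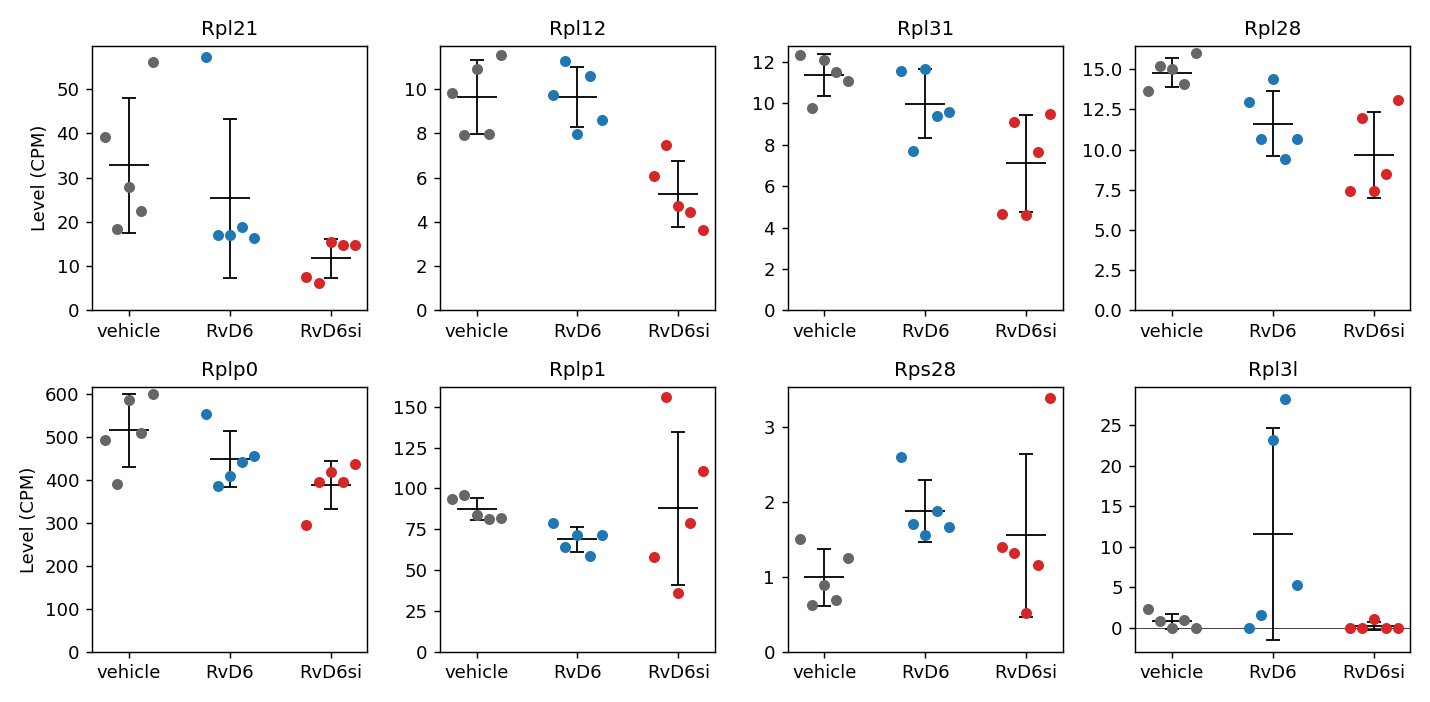
Level in CPM of 8 members in each sample, by group, with bars for the mean and the SD (n = 5). Rpl21, Rpl12, Rpl31 and Rpl28 do not overlap between RvD6si and vehicle, Rplp1 and Rps28 do not overlap between RvD6 and vehicle, and Rpl3l is high in 2 RvD6 samples.

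Rpl4, a highly counted protein of the large subunit, had a smaller difference that was measured more tightly than that of Rpl21. It was at 563 to 791 CPM in vehicle and at 462 to 580 CPM in RvD6si (log2 fold change -0.37, SE 0.12, adjusted p = 0.138). The biological coefficient of variation, the spread between samples beyond counting, was 15.5% for Rpl4 and 43.1% for Rpl21, with a median of 27.3% over the tested members and 33.7% over all genes tested.

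The P stalk proteins differed in their values. Rplp0 was at 493, 390, 587, 508 and 601 CPM in vehicle and at 295, 394, 418, 395 and 438 CPM in RvD6si, with a log2 fold change of -0.41 (SE 0.14, adjusted p = 0.162). Rplp1 was at 81.2 to 95.8 CPM in vehicle and at 57.9, 156, 35.9, 78.6 and 110 CPM in RvD6si, on both sides of the vehicle range, with a log2 fold change of 0.01 (SE 0.27). Rplp2, its partner in the stalk, was at 22.2 to 29.2 CPM in vehicle and at 12.6, 36.05, 17.6, 16.7 and 44.5 CPM in RvD6si, and its log2 fold change was -0.03 (SE 0.28). Both acidic stalk proteins were above every vehicle sample in replicates 12 and 15 and below every vehicle sample in replicates 11, 13 and 14. Rps6, the ribosomal protein that S6 kinase phosphorylates, was at 67.2 to 97.7 CPM in vehicle and at 51.1 to 79.7 CPM in RvD6si (log2 fold change -0.24, SE 0.15, adjusted p = 0.461). Rps27a, made as a fusion with ubiquitin, was at 14.6 to 24.8 CPM in vehicle and at 7.92 to 24.2 CPM in RvD6si (log2 fold change -0.45, SE 0.29, adjusted p = 0.467).

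The paralogs were counted apart from their parents to varying degrees. Rpl3l, which replaces Rpl3 in striated muscle, had 23, 7, 0, 7 and 0 counts in vehicle and 0, 0, 9, 0 and 0 counts in RvD6si, too few for a direction to be read from its log2 fold change of -1.68 (SE 1.44), while Rpl3 had a log2 fold change of -0.10 (SE 0.15). Rpl7l1, which acts in the making of the large subunit, had a log2 fold change of -0.10 (SE 0.18) against -0.26 (SE 0.14) for Rpl7. Rpl22l1 was at 2.64, 14.0, 2.17, 3.89 and 6.32 CPM in RvD6si against 4.67 to 6.52 CPM in vehicle, and replicate 12 alone stood above all vehicle samples. Its log2 fold change was 0.10 (SE 0.43) against -0.07 (SE 0.19) for Rpl22. Rpl36al was at -0.14 (SE 0.28) against -0.58 (SE 0.28) for Rpl36a, and Rpl39 was at -0.08 (SE 0.29). Rps27l and Rps27rt were at -0.44 (SE 0.22) and -0.45 (SE 0.32) against -0.73 (SE 0.39) for Rps27. The share of unique windows was 9.67% in Rps27rt, 15.4% in Rpl36a, 16.8% in Rpl3 and 41.4% in Rpl22l1. It was 88% in Rps27l, 79.8% in Rpl36al, 98.6% in Rpl22 and 100% in Rpl3l. Rps27 had few such windows, as given above. Where the share is low, the counts of a gene cannot be fully told apart from those of other genes. Differences between a paralog and its parent were not tested. Rps19bp1 had a log2 fold change of -0.41 (SE 0.20, adjusted p = 0.329).

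The lower counts were found whatever the share of the message that was a gene's own. In the 18 tested members with under 25% unique windows, 16 were below 0 with a median log2 fold change of -0.33. In the 39 members between 25% and 75% these were 33 members and -0.35, and in the 27 members above they were 26 members and -0.36. The pseudogene rows had similar values, with 115 of 131 tested rows below 0 and a median of -0.35. Members are short, with a median of 1755 bases of exon against 3968 over all genes tested, and once the dependence of each library on gene length had been smoothed out, the median log2 fold change of the members was -0.20.

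Erythroid marker levels had the same order as the members' share across the RvD6si samples, and those of granulocyte precursors had another. The 8 erythroid markers summed to 933, 2604, 1364, 1286 and 11982 CPM in RvD6si replicates 11 to 15, against 2375 to 5052 CPM in vehicle and 5737 to 10607 CPM in RvD6. The 3 samples with the lowest erythroid levels were the 3 with the lowest share of ribosomal protein counts. Vehicle and RvD6 samples held similar shares of ribosomal protein counts at erythroid levels that did not overlap. The 12 markers of marrow granulocyte precursors summed to 185, 87.3, 80.04, 103 and 2278 CPM in replicates 11 to 15, with the next highest level in the sample of the lowest share, and to 159 to 819 CPM in vehicle and 910 to 2923 CPM in RvD6. All 8 erythroid and all 12 precursor markers were detected in every group. Satellite glia and Schwann cell markers, 12 genes, summed to 18668, 17771, 24535, 26367 and 16420 CPM in replicates 11 to 15. In vehicle they summed to 17851 to 26779 CPM. The 14 sensory neuron markers summed to 15137, 13400, 17788, 15878 and 13379 CPM in replicates 11 to 15 and to 14563 to 16617 CPM in vehicle. Both sums were lowest in replicates 12 and 15, the RvD6si samples with the highest share of ribosomal protein counts. The part of these cells in the ribosomal protein levels was not tested. Without RvD6si replicate 15 and RvD6 replicates 8 and 9 the median log2 fold change of the members was -0.45 in RvD6si against vehicle and 0 members were called. Without vehicle replicate 3 it was -0.30, again with 0 members called.

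**Figure D5:**
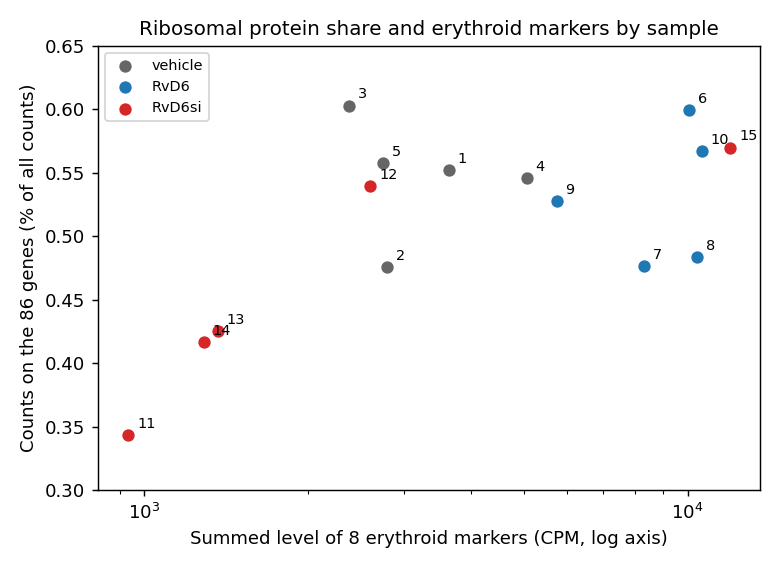
Counts on the 86 genes as a percent of all counts against the summed level of 8 erythroid markers (CPM, log axis) in the 15 samples, coloured by group with replicate numbers. RvD6si replicates 11, 13 and 14 lie lowest on both axes, and the other samples spread between 2375 and 11982 CPM at 0.476% to 0.603%.

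RvD6 was compared with vehicle by the same tests. After RvD6 the members as a set were near the vehicle level. They took 0.599, 0.477, 0.484, 0.527 and 0.567% of counts in replicates 6 to 10 (mean 0.531%, SD 0.0528, n = 5), all within the vehicle range. In edgeR 0 members were called (background 0.0%), in DESeq2 0 members (background 1.9%), and 46 of 84 had a log2 fold change below 0 (background 47.8%), with a median of -0.03 against 0.02 over all genes. With the length trend removed the median was 0.04, and without vehicle replicate 3 it was 0.02. Of the 14 sensory neuron markers 13 were below 0 (median log2 fold change -0.33), 5 of them at an unadjusted p below 0.05. All 8 erythroid, all 12 precursor and all 11 tested muscle markers were higher at that level, with medians of 1.55, 2.45 and 4.16. No marker of these lists was called, and their part in the members' values was not tested. At an unadjusted p below 0.05, 1 member was lower (Rpl26, background 5.99%) and 1 was higher (Rpl3l, background 7.63%).

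Rpl26, a large subunit protein, was at 45.1, 38.1, 61.8, 21.9 and 50.6 CPM in vehicle, at 26.8, 21.4, 17.7, 35.0 and 22.1 CPM in RvD6 and at 19.7, 28.3, 26.4, 21.6 and 25.5 CPM in RvD6si. Vehicle replicate 4 lay within both lipid groups and the other 4 vehicle samples lay above all lipid samples. The log2 fold change was -0.82 (SE 0.25, adjusted p = 0.177) for RvD6 and -0.84 (SE 0.25, adjusted p = 0.101) for RvD6si, and both used the same vehicle samples. Rpl3l, the muscle paralog, had 0, 13, 119, 165 and 38 counts in RvD6 replicates 6 to 10. Its 2 high samples were the ones with muscle messages, and its log2 fold change of 3.77 (SE 1.28, adjusted p = 0.219) was 1.44 without them and RvD6si replicate 15.

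A single member was lower and a single member was higher in all 5 RvD6 samples than in all 5 vehicle samples (background 1.62% lower and 2.15% higher). Rplp1 was at 93.8, 95.8, 83.7, 81.2 and 82.2 CPM in vehicle and at 78.6, 64.2, 71.3, 58.4 and 71.6 CPM in RvD6, with a log2 fold change of -0.34 (SE 0.27, adjusted p = 0.605). Rps28, a small subunit protein, was at 1.51, 0.619, 0.889, 0.685 and 1.26 CPM in vehicle and at 2.60, 1.71, 1.55, 1.88 and 1.67 CPM in RvD6, with a log2 fold change of 0.91 (SE 0.57, adjusted p = 0.507). That change rests on 5 to 24 counts a sample.

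The stereoisomers were compared directly, as 1 pair applied 3 times a day by the same route. RvD6si samples were lower than RvD6 samples in most members, and no member passed the test in edgeR (0 of 84, background 0.235%, lowest adjusted p = 0.19 for Rpl3l). The log2 fold change was below 0 in 77 members (background 50.5%), with a median of -0.26 against 0.00 over all genes. At an unadjusted p below 0.05, 12 members were lower (background 4.64%) and 0 were higher (background 4.18%). In 3 members, Rpl21 and Rpl12 among them, all RvD6si samples were lower than all RvD6 samples (background 1.1%), and 0 were higher (background 0.712%). Markers of other cells moved in this comparison too. At an unadjusted p below 0.05, all 8 erythroid markers were lower (median log2 fold change -1.42), as were all 11 tested muscle markers (median -5.30), of which 8 were called. Of the 12 precursor markers all were below 0 (median -1.51) and 1, Chil3, was called. Of the 14 sensory neuron markers 13 were above 0 (median 0.35), 1 of them at that level. The part of these cells in the members' values was not tested.

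DESeq2 called 1 member in this comparison (background 0.974%). For Rpl12 the log2 fold change was -0.86 (95% interval -1.43 to -0.30) and for Rpl21 it was -1.12 (95% interval -1.96 to -0.27). RvD6 replicate 6 had 57.2 CPM of Rpl21 and the other 4 RvD6 samples had 16.4 to 18.8 CPM, so that this interval rests partly on 1 sample. For Rpl8 it was -0.49 (95% interval -0.80 to -0.17). For Rplp0 it was -0.21 (95% interval -0.51 to 0.09), for Rps6 -0.20 (95% interval -0.51 to 0.12) and for Rpl3 0.02 (95% interval -0.29 to 0.32). Over the 84 members the interval reached a median of 0.51 on either side of the estimate. In a member with that width a difference of the size of the median member could not be shown. In 12 members the whole interval lay below 0, and in 0 it lay above. Rpl4 was among the 12, at -0.26 (95% interval -0.52 to -0.005). These intervals are not adjusted for the number of genes. Without RvD6 replicates 8 and 9 and RvD6si replicate 15 the median log2 fold change was -0.40.

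Genes that work with the members were taken from lists and read in the same fits, and 0 of 107 tested had an adjusted p below 0.05 in edgeR in any of the 3 comparisons. In RvD6si against vehicle 17 were lower (background 7.3%) and 6 higher (background 8.68%) at an unadjusted p below 0.05. DESeq2 called 7 lower and 5 higher (background 7.72% in either direction, of the genes given an adjusted p). Fau, a fusion that yields a small subunit protein, was at 73.2 to 85.95 CPM in vehicle and at 40.4, 66.0, 56.0, 47.5 and 84.5 CPM in RvD6si, a log2 fold change of -0.45 (SE 0.18, adjusted p = 0.215). Rack1, a scaffold on the small subunit, had -0.14 (SE 0.14). Of the translation factors whose messages carry TOP tracts, 10 of 16 were below 0 in RvD6si against vehicle (background 48.8%). Their median log2 fold change was -0.11. Other TOP messages had 4 of 8 below 0 (median -0.05), and 7 noncoding snoRNA host genes with TOP starts were all below 0 (median -0.31). Of the RNA polymerase I genes 12 of 15 were below 0 (median -0.18), of the ribosome assembly factors 25 of 40 (median -0.12), and of the regulators around mTORC1, S6 kinase and LARP1 8 of 18 (median 0.01). In RvD6 against vehicle these medians were -0.14, 0.00, -0.19, -0.29, -0.18 and -0.02 in the same order.

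A pair of other sets of small, widely expressed genes stand beside the members for scale. Of 77 tested mitochondrial ribosomal protein genes, 69 were below 0 in RvD6si against vehicle with a median log2 fold change of -0.35, and 67 in RvD6 against vehicle with a median of -0.25. Of 39 tested proteasome genes, these were 34 genes with -0.34 and 35 genes with -0.30. Over all genes tested 48.8% and 47.8% were below 0 in these comparisons. In edgeR 0 genes of either set were called in either comparison (background 0.67% and 0.0%). At an unadjusted p below 0.05, 33 and 19 of the mitochondrial genes were lower (background 7.3% and 5.99%). Of the proteasome genes it was 21 and 21. DESeq2 called 15 and 0 mitochondrial genes and 7 and 3 proteasome genes, all lower (background 7.72% and 1.9% in either direction). The cytosolic set stood at -0.35 in RvD6si against vehicle and in RvD6 against vehicle at -0.03. Differences between the sets were not tested.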

How the data were processed

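TG RNA was primed at the poly(A) tail, amplified and sequenced by an adapted Smart-seq2 protocol, which keeps no strand. The authors aligned reads with Rsubread to GRCm38, counted them on exons of GENCODE release 22 with featureCounts and deposited raw counts of 55573 genes. The file header names featureCounts 1.5.0-p1 and the submitters' processing notes Subread 1.6.5. How reads with several equal places were aligned is not given in the sources used here. Names came from GENCODE release 21 on the same build, which named 99.8% of gene IDs. Exon lengths were those deposited with the counts. Totals were 4125962 to 9903396 counts per sample. No pair of samples in a group was a copy (chi-square per degree of freedom at least 11.3).

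Groups were compared with edgeR 4.0.16 in R 4.3.3 (quasi-likelihood fit and F test), with all 15 samples in one fit, TMM normalization, edgeR's filter (minimum count 10, minimum total 15) and Benjamini-Hochberg adjustment over all 16567 genes tested, at a threshold of 0.05. An SE is the log2 fold change divided by the root of F, and 95% intervals use 18.2 degrees of freedom. CPM values are TMM-normalized. Shares use raw counts. DESeq2 1.42.0 and the other alternatives are listed in the closing section, the removal of 3 libraries being added after the data were seen. Scripts were tested on simulated counts. The p-values measure the spread between these samples, since nothing in the labels separates animals from preparations.

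Members and lists were chosen with earlier results of these data known. Genes named were the 4 highest and 4 lowest members per length in vehicle, those past the threshold, the 4 largest increases and decreases among members whose groups did not overlap (each lipid against vehicle), all paralogs with their parents, the P stalk, Rps27a, Rps6, Rps19bp1, Fau and Rack1. Some genes that pass these rules are not reported here. Amino acid sequences and columns of the study's own comparisons were not used here.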

Additional observations from a re-analysis of the deposited data

Results flagged for a closer look

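Among 88 groups of 5 values (the summed share and 30 named members in each group), 5 held 1 sample far from the other 4, where chance gives about 1 in 20. Groups of Rpl10l and Rpl39l at 0 in all 5 samples are not among the 88. Rpl21 was at 57.2 CPM in RvD6 replicate 6 and at 16.4 to 18.8 CPM in the other RvD6 samples. Rps27 was at 7.68 CPM in the same sample and at 3.59 to 4.30 CPM in the others. Rps18 was at 5.30 CPM in RvD6 replicate 9 and at 2.69 to 3.19 CPM in the others. Rpl3l was at 1.15 CPM in RvD6si replicate 13 and Rpl39l at 0.201 CPM in vehicle replicate 1, with 0 in the other samples of their groups. Both of these rest on under 10 counts. With the other 4 samples at 0 any count is flagged, so the rate of 1 in 20 does not apply to them.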

How the results depend on the processing

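The median log2 fold change of the members moved by less than 0.248 in all alternatives run. That limit was the pooled SD within groups of the per-sample member median (SD 0.379 in RvD6si, 0.142 in vehicle and 0.145 in RvD6). The limit is wide, so staying within it does not show that the median was unchanged. The alternatives were DESeq2, the 2 groups alone, RLE scaling, TMM without the members, no filter and 10 counts in every sample. Length or GC trends were also removed, and each sample was left out in turn. As samples were left out, the median ranged from -0.46 (without replicate 12 or 15) to -0.24 (without replicate 11) in RvD6si against vehicle. It ranged from -0.09 to 0.02 in RvD6 against vehicle and from -0.40 to -0.18 in RvD6si against RvD6.

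Counts moved more. Members called in RvD6si against vehicle, 0 in the report, were 7 in DESeq2 with all samples, 4 in DESeq2 with 2 groups, 1 (Rpl21) with 10 counts in every sample, and 0 to 1 as samples were left out, the 1 being Rpl21 without replicate 6. In RvD6si against RvD6, DESeq2 with all samples called 1. Members whose groups did not overlap in RvD6si against vehicle, 5 in the report, were 3 with the GC trend removed, 2 with the length trend removed and 5 to 13 as samples were left out (11 without replicate 2, 10 without 12 and 13 without 15). In RvD6 against vehicle they were 1 with 10 counts in every sample and 2 to 6 as samples were left out (4 without replicates 4, 5 or 8 each, 6 without 6), and in RvD6si against RvD6 they were 3 to 8 (5 without replicate 7, 8 without 12, 6 without 15). Fewer genes entered with 10 counts in every sample, and fewer samples entered with 2 groups or with samples left out. The fits with the length or GC trend removed used the same genes and samples as the report. What moved the counts was not tested.

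Without mitochondrial genes and the 10 most counted, the summed share was 0.672% in vehicle, 0.675% in RvD6 and 0.541% in RvD6si, and with pseudogenes added it was 0.902, 0.876 and 0.757% in vehicle, RvD6 and RvD6si. The log2 fold change of Rplp1 in RvD6si against vehicle was -0.080 without RvD6 replicates 8 and 9 and RvD6si replicate 15, and -0.31 to 0.20 as samples were left out. That of Rplp2 was 0.038 with the GC trend removed, 0.12 with the length trend removed and -0.31 to 0.15 as samples were left out. No paired analysis was possible because the groups share no replicate number.

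Depth limited the rarest members. Rps10, Rps28 and Rpl3l had 140, 161 and 381 counts in all samples together.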
